A study of Rattus norvegicus with 12 samples.

Results

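The interaction of ChREBPβ and glucose is the difference between the effect of ChREBPβ at 11 mM glucose and its effect at 2 mM glucose, (ChREBPβ 11 mM - GFP 11 mM) - (ChREBPβ 2 mM - GFP 2 mM), measured gene by gene on a log2 scale. All 12 libraries of the study enter it. They come from INS-1 cells, a rat insulinoma line, transduced with an adenovirus for GFP or for mCherry-tagged mouse ChREBPβ and cultured at either 2 or 11 mM glucose over 48 h, with 3 libraries in each of the 4 groups. The control cells carried a virus too, so a comparison between viruses holds the infection constant but not the protein expressed, and every cell was of a single tumour line. Of 28727 named genes in the count table, 14669 had enough counts to be tested. The labels do not say whether the 3 libraries of a group came from separate cultures. The paper describes the heat-map values it drew from these data as averages over 3 independent experiments. Either way, p-values measure the spread between these libraries only. In such bulk samples fewer cells of a kind and less RNA per cell cannot be told apart.

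ChREBP, encoded by Mlxipl, is a transcription factor that heterodimerises with Mlx and binds carbohydrate response elements, which are paired E-boxes in the promoters of glycolytic and lipogenic genes. The full-length α isoform is held in check by a low-glucose inhibitory domain until glucose metabolites accumulate. The β isoform starts from another promoter, lacks most of that domain and is active without that release. Glucose and ChREBPβ therefore act through the same DNA element at some genes, and crossing them shows for each gene whether the effects add. Additive here means that the log2 effects sum, that is, that the fold changes multiply. A gene raised by both is called sub-additive when the interaction is negative, and a gene lowered by both when it is positive.

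Between 25754488 and 32938546 counts fell on named genes per library in GFP cells at 2 mM, 36219167 to 46654823 in GFP cells at 11 mM, 28595982 to 57726412 in ChREBPβ cells at 2 mM, where replicate a was the shallow one, and 57088794 to 60531215 in ChREBPβ cells at 11 mM. Depth thus moved with the groups. With counts thinned to the smallest total, 728 interactions were called in place of 925, 654 of them shared. Markers of β-cells were present in every group, with Ins1, Ins2, Iapp, Pdx1, Nkx6-1, Mafa, Chga, Chgb and Slc30a8 all above 1 CPM (the unit of every level here, a gene's count over its library total after TMM scaling). The 5 markers of other islet cells summed to 1590 to 1720 CPM in GFP cells and to 429 to 502 in ChREBPβ cells, with only Gcg above 1 CPM. The 7 exocrine markers summed to 103 to 139 CPM in GFP cells and 143 to 163 in ChREBPβ cells, only Krt7 passing 1 CPM and Prss1 and Cftr at 0. Mesenchymal, endothelial and immune markers summed to at most 1.11, 1.86 and 1.32 CPM in any library, with only Pdgfrb, Kdr and Cd68 reaching 1 CPM in any and Dcn, Lum, Emcn and Ptprc at 0. The part of these levels in the results was not tested. The entry ChREBPb had 73.2, 77.97 and 82.2 CPM in GFP cells at 2 mM, 64.7, 73.3 and 66.1 in GFP cells at 11 mM, 90.7, 89.7 and 90.1 in ChREBPβ cells at 2 mM and 98.3, 84.3 and 81.4 in ChREBPβ cells at 11 mM. Which sequence it counts is not stated, so it checks the labels only weakly. Mlxipl, the endogenous gene, had means of 256 ± 18.8, 207 ± 5.32, 205 ± 6.63 and 188 ± 10.97 CPM in the same order (SD, n = 3), and a mouse coding sequence need not be counted on it.

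The interaction passed the test in 925 of 14669 genes (6.31%), by edgeR's quasi-likelihood test with an adjusted p below 0.05 and a minimum of 1.2-fold. It was negative in 696 (4.74% of tested genes) and positive in 229 (1.56%), so 24.8% of the calls were positive. With upper quartile scaling 35.3% of the calls were positive. The positive calls fell to 130 without GFP 11 mM replicate c, 137 without ChREBPβ 2 mM replicate b and 140 without ChREBPβ 2 mM replicate c. The ChREBPβ effect at 2 mM, which is subtracted in the interaction and shares 6 libraries with it, was above 0 in 692 of the 696 genes with a negative interaction and below 0 in 198 of the 229 with a positive one, a description that this sharing favours. The median interaction over all tested genes was -0.01. The ChREBPβ effects at 2 and 11 mM, which share no library, correlated across the 14669 genes with r = 0.852, a description over genes that are not independent replicates.

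Glucose alone changed 20.2% of tested genes in GFP cells, raising 10.2% and lowering 10.0%. ChREBPβ alone changed 44.1% at 2 mM, raising 21.0% and lowering 23.2%. In ChREBPβ cells the same step in glucose changed 3.87%, raising 0.988% and lowering 2.88%, and at 11 mM ChREBPβ changed 33.4%, raising 14.3% and lowering 19.1%. Both single effects passed the test in the same direction in 2394 genes, 1227 raised and 1167 lowered. Of the 1227, 612 were sub-additive, 31 were additive within 1.2-fold and 584 could not be resolved. Of the 1167, 141 were sub-additive, 88 additive within 1.2-fold and 938 unresolved. The 141 became 78 without GFP 11 mM replicate c, 84 without ChREBPβ 2 mM replicate b and 83 without ChREBPβ 2 mM replicate c. The 31 became 19 without ChREBPβ 11 mM replicate c, 20 without GFP 2 mM replicate b, GFP 11 mM replicate c or ChREBPβ 2 mM replicate a, and 48 without ChREBPβ 11 mM replicate a. Additive within 1.2-fold means that the interaction did not pass the test and that its 95% interval lay within 1.2-fold either way, and a gene was unresolved where the interval was wider.

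No gene was super-additive in that fit, with 1 at an unadjusted p under 0.05 and 1.2-fold and 2 at an unadjusted p under 0.05 whatever the fold. The likelihood ratio test called 1, as did the fits without GFP 11 mM replicate b and without ChREBPβ 2 mM replicate b. Among the 1522 unresolved genes, the fitted interaction went against the single effects in 1459. The GFP 2 mM libraries enter both single effects and the interaction with opposite signs, so a chance low or high value in them moves genes into the sub-additive classes, and the class counts are a description.

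**Figure D1:**
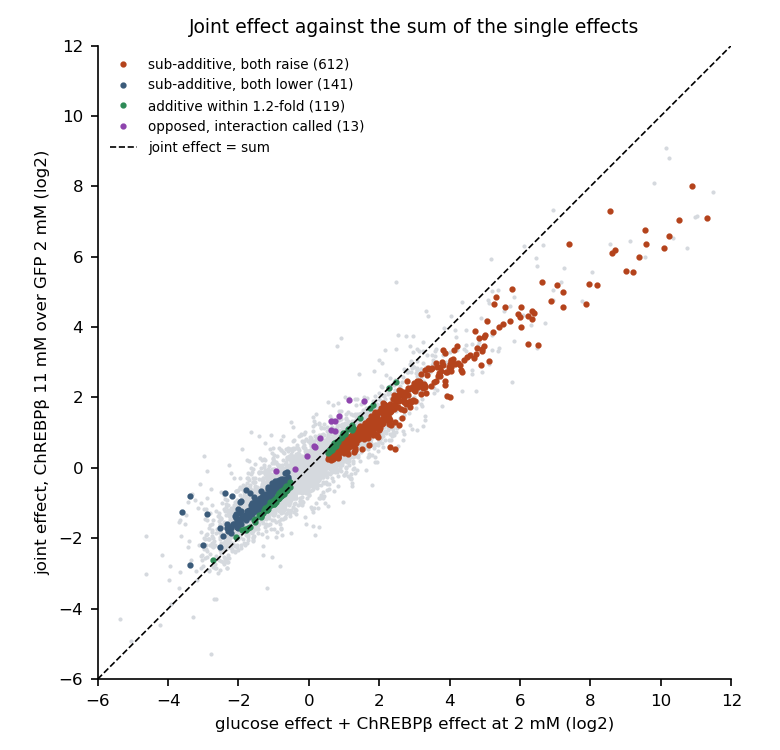
Each point is 1 of the 14669 tested genes, with the sum of the glucose effect in GFP cells and the ChREBPβ effect at 2 mM on the x axis and the joint effect, ChREBPβ at 11 mM over GFP at 2 mM, on the y axis, both as log2 fold changes. The dashed line marks equality. The 612 sub-additive raised genes lie below it, the 141 sub-additive lowered genes above it, and the 119 additive genes along it.

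The most negative interactions among genes averaging 5 CPM or more belonged to genes that rose with either factor from a low level in GFP cells at 2 mM, the highest of these being that of Txnip. Txnip, which encodes the thioredoxin-interacting protein and is a direct ChREBP target, had 26.8, 24.3 and 27.7 CPM in GFP cells at 2 mM. It had 335, 347 and 370.4 CPM in GFP cells at 11 mM, 450.0, 472 and 448 in ChREBPβ cells at 2 mM and 662, 659 and 677 with both. The 4 groups did not overlap. Glucose alone raised Txnip 13.4-fold, ChREBPβ alone 17.4-fold and both together 25.4-fold, where the product of the single folds corresponds to a log2 sum of 7.86. Its interaction was -3.19 ± 0.07 (log2, ± SE) with an adjusted p of 7.35e-17.

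Emp1, an epithelial membrane protein, stood at 0.404, 0.292 and 0.288 CPM in GFP cells at 2 mM and at 3.41, 3.56 and 4.55 in GFP cells at 11 mM. It reached 16.1, 16.01 and 16.6 CPM in ChREBPβ cells at 2 mM and 15.6, 13.5 and 17.2 with both. The last 2 groups overlapped, and adding glucose to ChREBPβ gave a log2 difference of -0.07 ± 0.09 (adjusted p = 0.73). Its interaction of -3.64 ± 0.25 (adjusted p = 6.53e-09) was the most negative of those averaging 5 CPM or more, and it rests on 11, 10 and 9 counts in the GFP 2 mM libraries.

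Prok2, a secreted ligand of prokineticin receptors, had 0.625, 0.496 and 0.160, then 4.34, 4.29 and 5.96, then 50.3, 52.3 and 57.4 and 50.1, 56.6 and 60.3 CPM in GFP 2 mM, GFP 11 mM, ChREBPβ 2 mM and ChREBPβ 11 mM cells. The ChREBPβ groups overlapped here too, and the interaction was -3.47 ± 0.28 (adjusted p = 6.49e-08) from 17, 17 and 5 counts in the GFP 2 mM libraries. Col5a3, a chain of type V collagen, had 0.441, 0.437 and 0.321 CPM in GFP cells at 2 mM, 5.58, 4.93 and 6.28 in GFP cells at 11 mM, 18.98, 19.5 and 18.5 in ChREBPβ cells at 2 mM and 25.1, 25.4 and 25.8 with both. In Col5a3 glucose still added to ChREBPβ, by 0.42 ± 0.07 (adjusted p = 7.44e-04), and the interaction was -3.39 ± 0.19 (adjusted p = 2.93e-10).

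Cilp2, a cartilage matrix protein, had group means of 3.92 ± 0.252, 31.1 ± 3.30, 144 ± 8.60 and 143 ± 1.69 CPM (SD, n = 3), so glucose added nothing detectable to ChREBPβ (log2 difference -0.01 ± 0.06, adjusted p = 0.92). Cpne9, a calcium-dependent phospholipid-binding protein, had 2.73 ± 0.277, 19.8 ± 1.60, 55.8 ± 1.44 and 64.2 ± 1.24 CPM. The other genes by the naming rule were Ramp1, a receptor activity-modifying protein of calcitonin-family receptors (-3.44 ± 0.30), Calhm2, a channel of the calcium homeostasis modulator family (-3.21 ± 0.39), Ihh, a hedgehog ligand (-2.81 ± 0.31), Pla2g2f, a secreted phospholipase (-2.50 ± 0.31), Gas7 (-2.03 ± 0.14) and the adhesion receptor Adgrf3 (-1.91 ± 0.20), all given as interactions, the highest adjusted p being 2.96e-05 for Pla2g2f. Ramp1, Calhm2 and Ihh had 2 to 11 counts in each GFP 2 mM library, Pla2g2f 14, 9 and 9 and Col5a3 12, 15 and 10. The single effects of these 5 genes are therefore set by few reads.

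**Figure D2:**
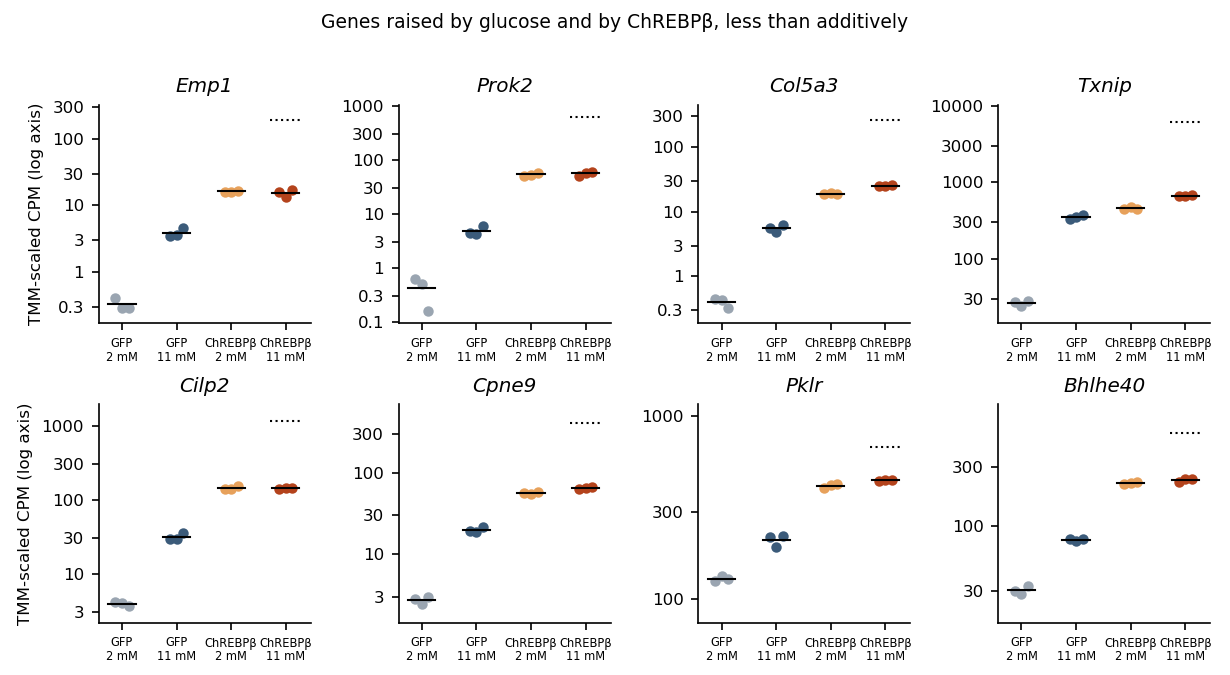
TMM-scaled CPM on a log axis for 8 sub-additive genes raised by both factors. Each dot is a library, each bar the mean of the 3 libraries of a group, and the dotted bar above the last group the level at which the 2 single fold changes would multiply. In every panel the ChREBPβ 11 mM libraries sit below the dotted bar. In Emp1, Prok2, Cilp2, Pklr and Bhlhe40 they lie close to the ChREBPβ 2 mM libraries.

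The choice of scale matters for this class. On linear CPM, where additive means that the rises sum, 42 of the 612 sub-additive raised genes had a joint rise above the sum of the single rises, among them Col5a3, Ihh and Gpd1. The joint effect was smaller than the larger of the single effects in 134 of the 612.

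Of 25 tested members of a list of known targets, 8 had a negative interaction and 0 a positive one, beside 4.74% and 1.56% of all tested genes. The 8 were Txnip, Bhlhe40, Angptl8, Rgs16, Pklr, Acaca, Gpd1 and Klf10. The list's median interaction was -0.16, although its median ChREBPβ effect was higher at 11 mM (0.93) than at 2 mM (0.74), since the medians fall on different members. The list was chosen with earlier results of these data known.

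Pklr, the liver-type pyruvate kinase that is the classical ChREBP target, had 126, 133 and 129 CPM in GFP cells at 2 mM, 218, 193 and 222 in GFP cells at 11 mM, 406, 419 and 426 in ChREBPβ cells at 2 mM and 442, 448 and 449 with both. The interaction was -0.61 ± 0.07 (adjusted p = 4.58e-06), and glucose on top of ChREBPβ gave 0.10 ± 0.05 (adjusted p = 0.22). Bhlhe40, a transcriptional repressor of the circadian clock, had 30.02, 28.1 and 32.9, 78.2, 75.6 and 79.2, 218, 222 and 227 and 228, 241 and 241 CPM in the same order, with an interaction of -1.27 ± 0.07 (adjusted p = 2.93e-10). Gpd1, which links glycolysis to triglyceride synthesis, rose from 313 ± 15.7 to 603 ± 41.7 CPM with glucose, to 1686 ± 69.3 with ChREBPβ and to 2223 ± 141 with both (SD, n = 3). Its interaction was -0.55 ± 0.08 (adjusted p = 1.04e-04).

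In other targets the interaction did not pass the test. Fasn and Acly, the lipogenic enzymes fatty acid synthase and ATP citrate lyase, rose in ChREBPβ cells at 2 mM by 1.52 and 1.15 and at 11 mM by 1.34 and 1.004. Their interactions of -0.18 ± 0.09 and -0.14 ± 0.05 were also below 0 but were not called (adjusted p = 0.26 and 0.09). Fasn was called without GFP 2 mM replicate c. Arrdc4, a paralogue of Txnip that is also induced by glucose, had 199, 198 and 189 CPM in GFP cells at 2 mM, 275, 277 and 278 in GFP cells at 11 mM, 179, 183 and 183 in ChREBPβ cells at 2 mM and 227, 228 and 235 with both. It rose with glucose in either background (0.50 and 0.34) and was lower with ChREBPβ than in GFP cells at 11 mM (-0.27 ± 0.04, adjusted p = 4.87e-06), unlike Txnip.

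The promoters of sub-additive raised genes were searched for the carbohydrate response element, which ChREBP binds. Whether such elements have a part in the sub-additivity was not tested. RefSeq promoter windows (GRCr8, 250 bases before to 50 after the start) matched 10110 of the tested genes by symbol, 447 of them in the sub-additive raised class. Where a symbol had several windows, only the first listed was searched for that gene, while the share of all windows uses every one. A carbohydrate response element was searched as a pair of CACGTG boxes, each with at most 1 mismatch and with 5 bases between them, a pattern that reads the same on both strands. It was found in 5 of the 447 windows (1.12%), beside 0.534% of all tested genes with a window and 0.502% of all 33469 windows. The unresolved raised class, at 4 of 369 windows (1.08%), had nearly the same share. Txnip, Myc, Ihh and Gas7 had no window by symbol, so their promoters were not searched. The 5 matches of the sub-additive raised class follow, with both boxes in capitals and as 1 run on the gene's strand. The distance to the start is counted from the first base of the leading box.
Pklr, chr2:176841076-176841132 (+), 168 bases before the start: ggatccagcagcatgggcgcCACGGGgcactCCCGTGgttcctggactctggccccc
Bhlhe40, chr4:143174210-143174266 (+), 220 bases before: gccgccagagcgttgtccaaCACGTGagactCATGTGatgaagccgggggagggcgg
Adgrf3, chr6:31852834-31852890 (+), 164 bases before: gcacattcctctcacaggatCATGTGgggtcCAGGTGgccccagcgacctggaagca
Hes1, chr11:84213106-84213162 (-), 97 bases before: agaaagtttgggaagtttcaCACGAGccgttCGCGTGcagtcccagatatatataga
Rgs16, chr13:68438088-68438124 (+), 12 bases before: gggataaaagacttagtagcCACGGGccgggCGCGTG

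The single E-box CACGTG, which reads the same on both strands and may lie inside such a pair, was commoner. It was in 16.3% of the 447 sub-additive raised windows, 12.7% of the unresolved raised ones, 15.4% of the 26 additive raised ones and 8.91% of the 101 sub-additive lowered ones, beside 9.17% of all tested genes with a window and 6.42% of all windows. The AP-1 type site TGANTCA was in 4.25% of the sub-additive raised windows and in 4.59% of tested genes with one. The Prok2 and Arrdc4 windows hold the E-box, shown with it in capitals; Prok2 was sub-additive and Arrdc4 was not.
Prok2, chr4:133918028-133918073 (-), 120 bases before: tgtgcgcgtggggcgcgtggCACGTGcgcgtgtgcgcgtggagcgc
Arrdc4, chr1:131793577-131793622 (-), 177 bases before: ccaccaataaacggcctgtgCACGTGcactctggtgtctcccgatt

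Of 27 tested genes of glucose transport, glycolysis and the pentose phosphate pathway, 9 had a negative interaction and 0 a positive one, beside 4.74% and 1.56% of all tested genes, and all 9 were raised by each factor alone. Pkm, the pyruvate kinase of most tissues, had means of 663 ± 31.8, 1140.3 ± 47.2, 1505 ± 48.4 and 1751 ± 91.3 CPM in GFP 2 mM, GFP 11 mM, ChREBPβ 2 mM and ChREBPβ 11 mM cells (SD, n = 3), with an interaction of -0.56 ± 0.07 (adjusted p = 1.40e-05). Pfkfb3, which makes the activator of phosphofructokinase, had 19.4, 19.4 and 21.99, 50.7, 47.7 and 49.9, 81.5, 77.5 and 78.2 and 94.3, 95.4 and 100.4 CPM and an interaction of -0.996 ± 0.07 (adjusted p = 2.40e-08). The others were Gpi (-0.41), Eno1 (-0.41), Gapdh (-0.34), Pfkp (-0.32), Tkt (-0.33), Rpia (-0.30) and Pgk1 (-0.27). Calls were lost for Tkt without GFP 11 mM replicate c or ChREBPβ 2 mM replicate b (-0.31 and -0.32), for Pgk1 without GFP 2 mM replicate a, GFP 11 mM replicate a or ChREBPβ 11 mM replicate a (-0.25 to -0.22) and under each other scaling and DESeq2 (-0.26 to -0.25), and for Rpia when any of 6 libraries was left out. Gapdh, Eno1 and Pkm have processed pseudogenes, and how shared reads were counted is not stated. Slc2a2, the main glucose transporter of rat β-cells, rose with ChREBPβ, with log2 effects of 0.50 at 2 mM and 0.46 at 11 mM. The 95% interval of its interaction was -0.15 to 0.08.

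Genes of ribosome biogenesis carried the highest share of calls of all lists. Of 24 tested members 17 (70.8%) had a negative interaction, 0 a positive one, and all 24 were below 0. The median log2 effect of glucose alone was 0.47, of ChREBPβ alone 0.55, of ChREBPβ at 11 mM 0.20 and of glucose in ChREBPβ cells 0.09, with a median interaction of -0.37 beside -0.01 for all tested genes. Polr1b, a subunit of RNA polymerase I, had 29.9, 28.4 and 31.1 CPM in GFP cells at 2 mM, 43.9, 47.3 and 47.99 in GFP cells at 11 mM, 60.1, 58.4 and 59.6 in ChREBPβ cells at 2 mM and 59.2, 57.9 and 60.02 with both. Its joint effect (0.99) equalled that of ChREBPβ alone (0.99), and its interaction was -0.65 ± 0.07 (adjusted p = 4.24e-06). Ncl and Nop56, nucleolar proteins of rRNA processing, had interactions of -0.39 ± 0.06 and -0.43 ± 0.05. Ubtf, which activates rDNA transcription, passed the test for neither factor and had an interaction of -0.07 ± 0.05. In the list of cytosolic ribosomal protein genes, 2 of 26 (7.69%) were called, Rpl8 and Rps3, a share near the 6.31% of all tested genes. The list still leaned negative, with 24 of 26 interactions below 0 beside 7533 of 14669, and a median of -0.17 beside -0.01. An unadjusted p under 0.05 was reached by 13 of the 26, beside 3070 of 14669 tested genes. The call of Rps3 was lost with upper quartile scaling (-0.26) and in 4 fits that left out a library (-0.27 to -0.25).

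Myc, which drives ribosome biogenesis in many cells, had 37.01, 38.9 and 42.1 CPM in GFP cells at 2 mM and 87.7, 90.3 and 95.2 in GFP cells at 11 mM. ChREBPβ gave 114, 108 and 109 CPM at 2 mM and 122, 124 and 124 at 11 mM. The groups did not overlap, the interaction was -1.05 ± 0.07 (adjusted p = 3.47e-09), and the joint rise of 3.13-fold was little above the 2.80-fold rise with ChREBPβ alone.

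**Figure D3:**
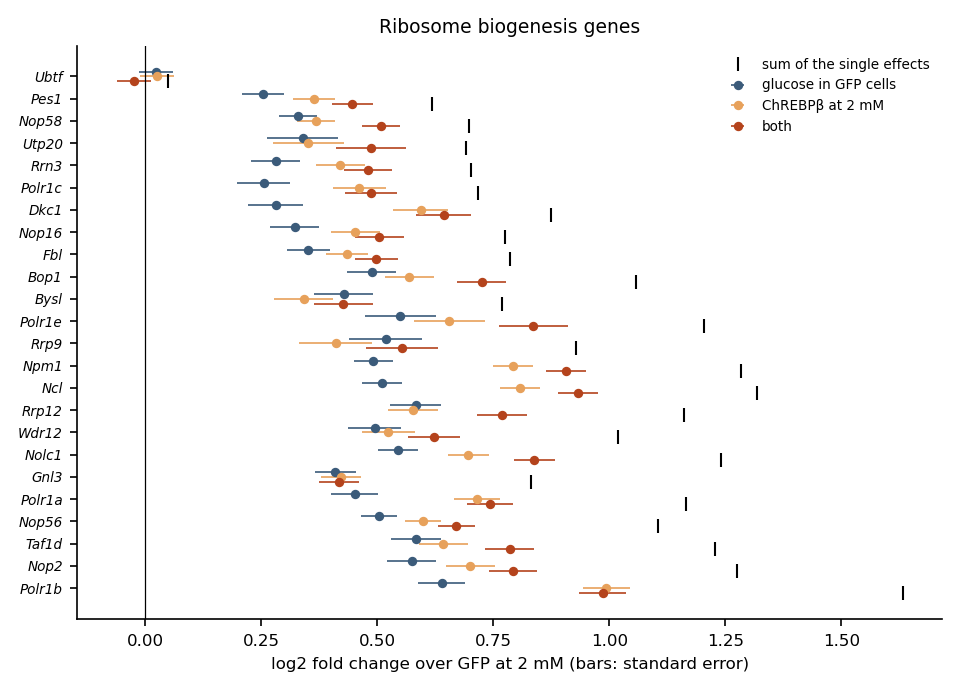
Log2 fold change over GFP at 2 mM of each of the 24 ribosome biogenesis genes with glucose alone, ChREBPβ alone and both, with standard errors as bars and a tick at the sum of the single effects. The tick lies to the right of the joint effect in each gene, by least in Ubtf.

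Of 29 tested genes of G1 and S phase 10 had a negative interaction and 0 a positive one, beside 4.74% and 1.56% of all tested genes, and 8 of the 10 were raised by each factor alone. Of 25 mitosis genes 4 had a negative interaction, and DESeq2 called 2. These 4, Cdc25c, Bub1, Mad2l1 and Top2a, lay at -0.29 to -0.27, close to the 1.2-fold limit, and the calls of Cdc25c, Top2a and Bub1 were lost in 13, 11 and 10 of 22 alternatives. Mcm10, which loads replication factors, had group means of 30.4 ± 0.493, 41.3 ± 1.02, 55.6 ± 1.47 and 55.8 ± 0.995 CPM and an interaction of -0.44 ± 0.06 (adjusted p = 1.80e-04). Ccnd2, a D-type cyclin, had an interaction of -0.48 ± 0.08, Gins1 of -0.51 ± 0.08 and Rrm2, the small subunit of ribonucleotide reductase, of -0.37 ± 0.08. The E2F target and regulator E2f1 differed by neither factor alone past 1.2-fold (0.08 and 0.18) and had an interaction of -0.28 ± 0.07. That call was lost without GFP 2 mM replicate c (-0.24), ChREBPβ 2 mM replicate c (-0.26) or ChREBPβ 11 mM replicate a (-0.26), with upper quartile scaling (-0.25), with library totals (-0.26) and with thinned counts (-0.22). Cdc6, which licenses origins, differed by 0.25 with glucose and so not to 1.2-fold, and at 11 mM ChREBPβ cells differed from GFP cells by -0.32 ± 0.06.

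Several single genes of signalling were sub-additive. Hbegf, an EGF-receptor ligand, had 17.6, 18.2 and 18.8 CPM in GFP cells at 2 mM, 53.3, 51.4 and 57.6 in GFP cells at 11 mM, 106, 109 and 110.0 in ChREBPβ cells at 2 mM and 139, 139.7 and 147 with both, and an interaction of -1.18 ± 0.07 (adjusted p = 1.02e-09). Egln3, an oxygen-dependent prolyl hydroxylase, had an interaction of -1.35 ± 0.09. Bmf, a BH3-only protein of the Bcl2 family, rose from 1.52 ± 0.211 CPM to 2.90 ± 0.426 with glucose and 10.4 ± 0.554 with ChREBPβ and stood at 11.1 ± 0.505 with both, with an interaction of -0.85 ± 0.18 (adjusted p = 0.00542). Gcgr, the glucagon receptor, had an interaction of -0.83 ± 0.06. Among clock genes, Ciart (-1.12) and Hlf (-0.65) were negative beside Bhlhe40, and Per3 (0.53) and Dbp (0.44) positive. In that list 6 of 19 tested members were called, 4 negative and 2 positive, beside 4.74% and 1.56% of all tested genes. The call of Hlf was lost without GFP 2 mM replicate b (-0.53) and in 5 other fits that left out a library, and with thinned counts (-0.58), as was that of Per3 (0.48).

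Among genes that both factors lowered, β-cell identity genes took part. Of 18 tested members of that list 5 had a positive interaction, among them Isl1, Pdx1, Nkx2-2 and Hnf4a, and 1 a negative one, beside 1.56% and 4.74% of all tested genes. The median ChREBPβ effect was -1.11 at 2 mM and -0.84 at 11 mM. Isl1, a LIM-homeodomain transcription factor of islet cells, had 252, 267 and 241 CPM in GFP cells at 2 mM and 189, 188 and 172 in GFP cells at 11 mM. With ChREBPβ it had 85.02, 88.4 and 88.8 CPM at 2 mM and 78.6, 76.5 and 78.6 at 11 mM. The groups did not overlap, and the interaction was 0.31 ± 0.07 (adjusted p = 0.00619).

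Pdx1, the master regulator of β-cell genes, had group means of 221 ± 4.98, 162 ± 7.48, 105 ± 3.35 and 94.3 ± 2.40 CPM, and its interaction of 0.28 ± 0.06 (adjusted p = 0.00621) was close to the 1.2-fold limit. The call was lost without GFP 2 mM replicate c (0.26), GFP 11 mM replicate b (0.25) or ChREBPβ 2 mM replicate a (0.26). Nkx2-2 and Hnf4a, at 0.27 ± 0.07 and 0.27 ± 0.06, lay as close and were lost in 5 and 4 such fits (0.24 to 0.28 and 0.24 to 0.26), and Isl1 was lost without GFP 11 mM replicate c (0.26). Ins1 (0.15 ± 0.08; reads it shares with Ins2 may be split between the 2 genes), Nkx6-1 (0.18 ± 0.08), Mafa (0.11 ± 0.07) and Iapp (0.20 ± 0.05) were lowered by both factors, and their interactions did not reach the call.

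Of the called genes averaging 5 CPM or more, Pdgfra, the α receptor of platelet-derived growth factor, had the most positive interaction. It had 6.91, 8.02 and 8.78 CPM in GFP cells at 2 mM, 4.20, 5.52 and 4.02 in GFP cells at 11 mM, 4.40, 3.32 and 3.46 in ChREBPβ cells at 2 mM and 4.33, 4 and 4.11 with both. Every library of the latter 3 groups lay below every one of the first, and the 3 overlapped in part. The interaction was 0.98 ± 0.20 (adjusted p = 0.00338), and ChREBPβ at 11 mM differed from GFP by -0.13 ± 0.14 (adjusted p = 0.44). Tppp3, a tubulin-binding protein, fell to 0.548 of the GFP 2 mM level with glucose alone, to 0.570 with ChREBPβ alone and to 0.611 with both (interaction 0.97 ± 0.15, adjusted p = 3.00e-04). Col6a6, a collagen VI chain (0.80 ± 0.16), and Eml2, a microtubule-binding protein (0.72 ± 0.15), were of the same class.

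In the additive classes the interaction was bounded within 1.2-fold, which need not mean that it was 0. Limk1, a kinase that inactivates cofilin, had 109.5, 111 and 116 CPM in GFP cells at 2 mM, 144, 143 and 148 in GFP cells at 11 mM, 466, 495 and 479 in ChREBPβ cells at 2 mM and 577, 623 and 609 with both. ChREBPβ raised it 4.28-fold at 2 mM and 4.16-fold at 11 mM, and the 95% interval of its interaction was -0.16 to 0.08. Cdkn1a, which encodes the cyclin-dependent kinase inhibitor p21, had 49.2, 49.5 and 50.2, 70.6, 65.5 and 71.4, 116, 118 and 119.6 and 155, 166 and 167 CPM, with ChREBPβ folds of 2.37 and 2.35 and an interval of -0.15 to 0.12. The synaptic protein Nptx1 (-0.18 to 0.18), the mTORC2 component Prr5 and the peroxisomal protease Lonp2 belong here too.

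Of the 88 additive lowered genes, Enpp2, which makes lysophosphatidic acid, had the largest joint effect. It went from 119, 124 and 121 CPM in GFP cells at 2 mM to 56.1, 57.6 and 56.5 with glucose, 39.2, 41.6 and 37.2 with ChREBPβ and 19.2, 18.2 and 21.3 with both, an interval of -0.08 to 0.25 for the interaction. Pcsk2, the prohormone convertase that completes proinsulin and proglucagon processing, had means of 2322 ± 93.9, 1573 ± 22.4, 919 ± 11.8 and 679.8 ± 5.13 CPM and an interval of 0.02 to 0.23. The sorting receptor Sort1 and the amine oxidase Maob were in this class as well. Of 24 tested lysosome and autophagy genes 5 were additive within 1.2-fold, all lowered by both factors (Lamp2, Ctsa, Gaa and Hexa among them), and Wipi1 was sub-additive (0.45 ± 0.09). The additive classes hold 119 of 14669 genes and depend on the precision of the interval, whose standard error had a median of 0.10 over all tested genes.

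In 71 genes the single effects opposed each other. The interaction passed the test in 13, always with the sign of the ChREBPβ effect at 2 mM. Their joint effects thus lay on the ChREBPβ side of the sum, and in 5 of the 13 were smaller than the larger single effect. A further 9 were additive within 1.2-fold and 49 were unresolved. In 0 the called interaction took the sign of the glucose effect (2 at an unadjusted p under 0.05). The 13 became 7 without GFP 2 mM replicate c, GFP 11 mM replicate c, or ChREBPβ 2 mM replicate b or c, and 8 without ChREBPβ 2 mM replicate a or ChREBPβ 11 mM replicate b. Glul, glutamine synthetase, had 183, 181 and 193 CPM in GFP cells at 2 mM, 129.6, 118 and 133 in GFP cells at 11 mM, 307, 287 and 309 in ChREBPβ cells at 2 mM and 279, 283 and 305 with both. Glucose lowered it in GFP cells (-0.55 ± 0.05), and in ChREBPβ cells the difference was -0.06 ± 0.05 (adjusted p = 0.54). Its interaction was 0.49 ± 0.07 (adjusted p = 1.38e-04).

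Pdk2, a kinase that inactivates pyruvate dehydrogenase, fell with glucose in GFP cells (-0.34 ± 0.09) and rose in ChREBPβ cells at 2 mM (0.97 ± 0.08) and at 11 mM (1.43 ± 0.08), with an interaction of 0.46 ± 0.11 (adjusted p = 0.015) that was lost without GFP 11 mM replicate c (0.36) or with thinned counts (0.42). Flrt1, a cell adhesion protein, had an interaction of 0.71 ± 0.11 and Blnk, an adaptor of B-cell receptor signalling, of 0.83 ± 0.17. Rragd, a GTPase that relays amino acid levels to mTORC1, had 31.02, 29.9 and 29.9 CPM in GFP cells at 2 mM and 31.1, 29.6 and 30.4 with both, so the opposing effects of -0.41 and 0.46 cancelled. Nr4a1, an immediate early nuclear receptor, rose with glucose by 0.38 and was lowered by ChREBPβ, with a log2 effect of -0.66, and its interaction interval was -0.24 to 0.19.

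**Figure D4:**
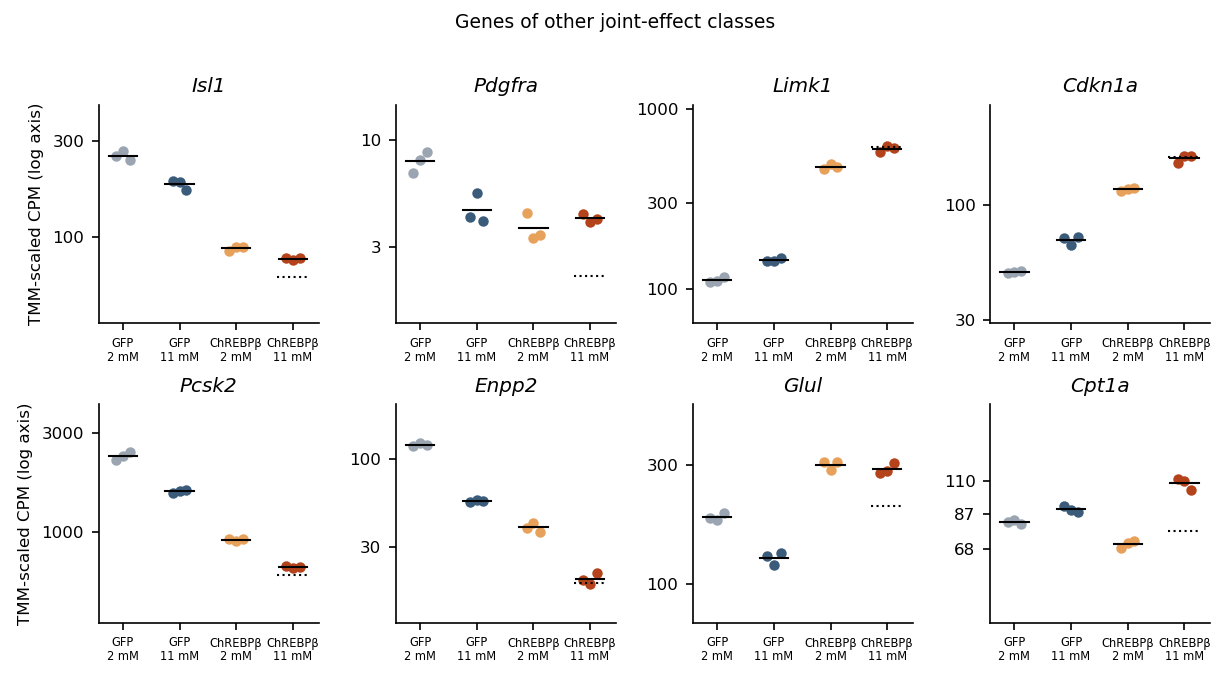
TMM-scaled CPM on a log axis for genes of other classes. Dots are libraries, bars means of 3 libraries, and the dotted bar the level expected if the single fold changes multiplied. Limk1 and Cdkn1a meet the dotted bar, while Isl1, Pdgfra, Glul and Cpt1a lie above it.

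Where only 1 factor passed the test alone, most genes had no called interaction. ChREBPβ alone passed in 4011 genes, of which 62 had a smaller effect with glucose, 6 a larger one and 3943 no call. The 6 larger ones include Ltbp3, which binds latent TGF-β, at 273, 285 and 278 CPM in ChREBPβ cells at 2 mM and 342, 344 and 328 at 11 mM against 163, 163 and 159.6 and 149, 147 and 148 with GFP (interaction 0.41 ± 0.05, adjusted p = 3.44e-05). Lgals9, a galectin, rose 7.83-fold at 2 mM and 9.80-fold at 11 mM (0.32 ± 0.08), a call lost without GFP 11 mM replicate c (0.27). Glucose alone passed in 498 genes, of which 66 had a smaller effect with ChREBPβ, 0 a larger one and 432 no call. Ccng2, an atypical cyclin, was lowered by glucose in GFP cells, with a log2 effect of -0.33 and differed by 0.13 in ChREBPβ cells (interaction 0.46 ± 0.11, lost without GFP 11 mM replicate c at 0.36 or ChREBPβ 2 mM replicate b at 0.41). These genes of 1 factor alone were singled out after their values were seen.

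A further 25 genes passed for neither factor alone but had a called interaction, 10 positive and 15 negative. The 10 include Cpt1a, Acaa2, Acadl and Etfdh, picked after their values were seen, and no list of their pathway was counted. Cpt1a, the enzyme that carries fatty acids into mitochondria, had 82.4, 83.7 and 80.9 CPM in GFP cells at 2 mM, 92.4, 89.6 and 88.5 in GFP cells at 11 mM, 68.4, 71.02 and 72.1 in ChREBPβ cells at 2 mM and 111, 110.1 and 104 with both. The ChREBPβ 11 mM libraries were above every other library and the ChREBPβ 2 mM libraries below. ChREBPβ changed it by -0.22 ± 0.04 at 2 mM and by 0.27 ± 0.04 at 11 mM, and the interaction was 0.49 ± 0.06 (adjusted p = 2.85e-05).

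Acaa2, a thiolase of β-oxidation, had 49.2, 51.1 and 50.97 CPM in ChREBPβ cells at 2 mM and 70.2, 75.6 and 75.7 at 11 mM, with an interaction of 0.35 ± 0.07 (adjusted p = 0.00401). Etfdh, which passes electrons from acyl-CoA dehydrogenases to ubiquinone, had 0.31 ± 0.07, and Acadl 0.27 ± 0.07, the latter lost when any of 7 libraries was left out. Ndrg1 also belongs to the 10, at 0.40 ± 0.07. In 2 genes the ChREBPβ effect was called in opposite directions at the 2 glucose levels. The one with a mean above 5 CPM, LOC680121, varied between libraries of a group, with 27.1, 54.9 and 24.1 CPM in GFP cells at 11 mM, and its call was lost in DESeq2.

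**Figure D5:**
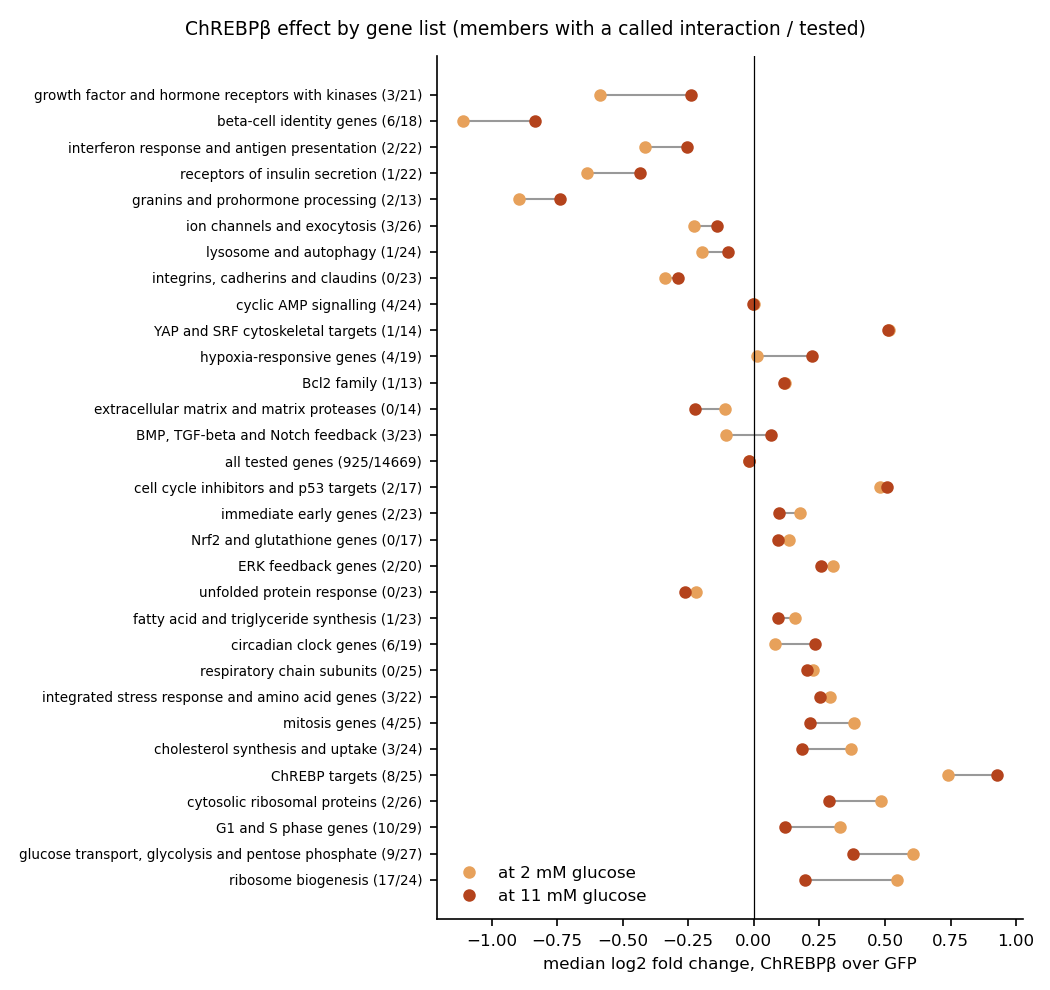
Median log2 ChREBPβ effect over GFP at 2 mM and at 11 mM glucose for each gene list with at least 10 tested members, and for all tested genes, ordered by the median interaction. The counts behind each name are members with a called interaction and members tested. Ribosome biogenesis genes show the lowest median interaction, and their ChREBPβ effect is 0.55 at 2 mM and 0.20 at 11 mM.

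Lists with 0 called members included the unfolded protein response (0 of 23, 6 at an unadjusted p under 0.05), Nrf2 and glutathione genes (0 of 17, 5 unadjusted), respiratory chain subunits (0 of 25, 2 unadjusted), integrins, cadherins and claudins (0 of 23, 5 unadjusted) and extracellular matrix and its proteases (0 of 14, 0 unadjusted). DESeq2 called 1 of the Nrf2 and glutathione genes and 0 in the others, and limma voom 0 in each. Over all tested genes 6.31% were called, and 3070 of 14669 had an unadjusted p under 0.05. For the unfolded protein response and the respiratory chain the interval of the interaction lay within 1.2-fold in 18 of 23 and 19 of 25 members. It did so in only 7 of 17 Nrf2 and glutathione genes, 6 of 23 integrins, cadherins and claudins and 1 of 14 matrix genes. In most members of these lists the interaction was therefore not bounded. Fatty acid and triglyceride synthesis had 1 call in 23, Acaca.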

How the data were processed

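RNA of 12 libraries was amplified and sequenced in paired ends, and the authors deposited read counts per gene without normalization, with Rnor_6.0 and edgeR named in the submitters' processing notes. The aligner and counting program are not given in the sources used here. The table also holds the authors' deposited mean counts of each group, equal to the means of the count columns (relative tolerance 0.001) in all 28728 rows and not used further. Columns of other per-sample values numbered 0. One row without a gene name, with at most 0.00601% of counts, was left out, and 26 names turned into dates were not named.

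Counts were filtered with filterByExpr by group, scaled with TMM (factors 0.958 to 1.06) and fitted in R 4.3.3 with edgeR 4.0.16 as a single factor of 4 groups, and contrasts were tested by quasi-likelihood, p-values being adjusted across the tested genes by the Benjamini-Hochberg method. A call needs an adjusted p under 0.05 and 1.2-fold. The standard error is the log2 fold change divided by the square root of F. Alternatives used limma 3.58.1 and DESeq2 1.42.0, other scalings, filters, a replicate block, thinning and each library left out. Python 3.11.15 made tables and plots.

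Genes named have a mean of at least 5 CPM and are the 12 most negative and 8 most positive interactions, the 8 strongest of each sub-additive and additive class, 8 opposed with a called interaction and 6 opposed additive genes, members of the gene lists, and Txnip, Arrdc4, Pklr, Mlxipl, Myc and ChREBPb. List members are named whatever their level. The members, classes and lists were chosen with earlier results of these data known. Where a gene was added after its values were seen, the text says so. Some genes that the rule or the lists hold are not reported here by name and stay in the counts. The 5 CPM restriction of the class counts and the list counts without single libraries were chosen after seeing the data. On simulated data for the interaction over 14669 genes, the quasi-likelihood test recovered 82% of genes raised 2-fold, 76% of those raised 1.5-fold, 78% of those lowered to 0.5 and 62% of those lowered to 0.667 of their level, with 6 false calls. Promoter windows come from RefSeq (GRCr8), matched by symbol, and are not of the build the authors used.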

Additional observations from a re-analysis of the deposited data

Results flagged for a closer look

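The count of 925 genes whose ChREBPβ effect differed between 2 and 11 mM glucose was flagged because the difference itself passed edgeR's quasi-likelihood test. The genes named for the most negative interactions were flagged by the same test: Emp1 (-3.64), Prok2 (-3.47), Ramp1 (-3.44), Col5a3 (-3.39), Calhm2 (-3.21), Txnip (-3.195), Cilp2 (-3.005), Ihh (-2.81), Cpne9 (-2.66), Pla2g2f (-2.50), Gas7 (-2.03) and Adgrf3 (-1.91). The genes named for the most positive ones were Pdgfra (0.98), Tppp3 (0.97), LOC688553 (0.91), Blnk (0.83), Col6a6 (0.80), Kcne2 (0.79) and Eml2 (0.72).

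Of the latter, LOC688553 had 1.58 ± 0.357 and 1.11 ± 0.254 CPM with GFP and 9.27 ± 1.27 and 12.4 ± 1.16 with ChREBPβ at 2 and 11 mM (SD, n = 3), and its call was lost in limma voom (0.89) and when any of 5 libraries was left out. Kcne2, a potassium channel subunit, had 2.76 ± 0.569, 1.998 ± 0.416, 8.53 ± 0.418 and 10.6 ± 1.16 CPM in the same order and lost its call when any of 5 libraries was left out. Single outlying values were not tested for in these groups of 3 libraries.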

How the results depend on the processing

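All 925 interactions kept their sign in every alternative in which they were tested. Of 164 named genes with a called interaction, 41 were called in every alternative and 123 were lost in at least 1, with 0 reversed. Testing against 1.2-fold itself called 194 genes (14 positive, 180 negative), with 178 sub-additive raised, 7 sub-additive lowered, 4 and 25 additive, 3 opposed and called, 1 opposed and additive and 0 reversed ChREBPβ effects. It left 2 ribosome biogenesis, 1 G1 and S phase, 2 glycolytic and 2 β-cell identity genes. A minimum of 2-fold gave 108 (11 positive, 97 negative). The likelihood ratio test gave 345 positive calls, 1 super-additive gene and 8 reversed ChREBPβ effects, where the main count was 2. That count was 0 in DESeq2, 1 in limma voom, 6 with no filter and 1 among genes of at least 5 CPM, an alternative chosen after seeing the data. Thinned counts gave 55 additive lowered genes, 8 opposed and called and 3 opposed and additive. Taking single effects by sign only gave 2 super-additive, 1570 and 1439 additive, 42 opposed called and 1169 opposed additive genes.

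Leaving out each library in turn gave 669 to 1078 calls, 130 to 278 positive, 539 to 800 negative, 493 to 683 sub-additive raised, 78 to 171 sub-additive lowered, 0 to 1 super-additive, 19 to 48 and 59 to 103 additive, 7 to 14 opposed called, 6 to 10 opposed additive and 1 to 6 reversed. List members called were 13 to 19 of ribosome biogenesis, 8 to 11 of G1 and S phase, 7 to 12 glycolytic, 8 to 9 ChREBP targets and 4 to 7 β-cell identity genes. Deviations of libraries with the same letter correlated at -0.114 to 0.0644, above 0.1 in 0 of 18 pairs, and 6 of 12 libraries correlated best with their own letter, so the letters were not taken as pairing. The replicate block gave 912 calls, 884 shared, and changed no class count by over 1.5 times. Low counts with GFP at 2 mM limit the size of the largest interactions, and the additive classes are limited by depth. The cause of these changes was not tested.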

Other observations

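Each list below holds 3 or 4 called members, beside 6.31% of all tested genes called. Psat1 and Psph, consecutive enzymes of serine synthesis, were raised by each factor alone and had interactions of -0.53 ± 0.06 (adjusted p = 3.48e-06) and -0.47 ± 0.07 (adjusted p = 1.80e-04). Psat1 had 82.8 ± 2.50, 141 ± 0.929, 172 ± 4.43 and 202 ± 5.12 CPM in GFP 2 mM, GFP 11 mM, ChREBPβ 2 mM and ChREBPβ 11 mM cells (SD, n = 3). In the list of the integrated stress response and amino acid genes, 3 of 22 members were called, the other being Vldlr (0.35). Of 24 cholesterol synthesis and uptake genes, 3 had a negative interaction, Hmgcs1 (-0.36 ± 0.07), Fdft1 (-0.33 ± 0.07) and Insig1 (-0.32 ± 0.07). Of 24 cyclic AMP genes 3 had a negative interaction, the adenylyl cyclases Adcy1 (-0.60 ± 0.11) and Adcy3 (-0.54 ± 0.10) and the phosphodiesterase Pde4b (-0.61 ± 0.10), and 1, Creb3l1, a positive one (0.59) that was lost in 9 of the 12 fits that left out a library, with limma voom, under the replicate block and with thinned counts. These genes and those that follow are the called members of their lists or were chosen after their values were seen.

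Of 23 genes of BMP, TGF-β and Notch feedback 2 had a negative interaction and 1 a positive one. Id2, an inhibitor of basic helix-loop-helix factors, had 1.03, 1.46 and 0.801 CPM in GFP 2 mM cells, 2.26, 2.17 and 2.62 in GFP 11 mM cells, 7.38, 6.51 and 6.72 in ChREBPβ 2 mM cells and 6.79, 6.56 and 7.53 with both, so the ChREBPβ groups overlapped (interaction -1.06 ± 0.22, adjusted p = 0.00532). Hes1, a Notch target, had an interaction of -0.65 ± 0.15 (adjusted p = 0.00991). Among 21 growth factor and hormone receptors with kinase activity, 3 had a positive interaction and 0 a negative one. Fgfr4, a fibroblast growth factor receptor lowered by each factor alone, was one of them, with 0.39 ± 0.07 (adjusted p = 0.00153).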
